A study of Homo sapiens with 24 samples.

Results

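The genes described here encode the translation initiation factors (symbols beginning with EIF) and elongation factors (symbols beginning with EEF), the soluble proteins that run the ribosome through the start and the body of a coding sequence. They were taken from the table of read counts per gene as every protein-coding row whose symbol begins with EIF or EEF and a digit, apart from the eIF2 kinases (EIF2AK), and no measured value was used to choose them. The rule gave 62 of 48162 genes. Of these, 54 had enough counts to be tested in each comparison of conditions. Of the others, EEF1G, EEF1E1-MUTED, EIF2S3L, EIF4E1B, EIF4E3, EIF4EBP3 and a further gene model named EIF3L held at most 7 counts in any library, and EIF1AY is not reported here.

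Initiation begins when eIF2, bound to GTP and the initiator tRNA, joins the small ribosomal subunit together with eIF1, eIF1A, eIF5 and the large eIF3 complex. The cap-binding factor eIF4E, the scaffold eIF4G and the helicase eIF4A, aided by eIF4B and eIF4H, load the mRNA, and 4E-BP proteins such as EIF4EBP1 hold eIF4E back when mTORC1 kinase activity is low. During elongation eEF1A brings each aminoacyl-tRNA to the ribosome, the eEF1B subunits exchange its nucleotide, eEF2 moves the ribosome along by a codon, and eIF5A relieves stalls. The mRNAs of eEF1A, eEF2 and several other factors start with a C and a run of pyrimidines, the terminal oligopyrimidine (TOP) motif, which they share with the mRNAs of ribosomal proteins and through which LARP1 and mTORC1 govern their translation and stability.

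RNA was sequenced from PPC1, a prostate cancer cell line, in 4 conditions with 6 libraries each. Parental cells without treatment (UT) were harvested on day 5. Polyploid giant cancer cells (PGCC) were made by irradiation with 8 Gy on day 2 and were collected on a 20 micron filter on day 5, so that dose, filtration and the giant state cannot be told apart. UT_LCL and PGCC_LCL are the same 2 populations exposed for 5 h before harvest to 5 µM LCL521, written LCL-521 in the labels, a pro-drug that inhibits the lysosomal enzyme acid ceramidase (ASAH1). The experiment was run 6 independent times with the conditions handled in parallel, and the replicate number names the run.

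Libraries held between 14835246 and 19906601 counts on genes. CDKN1A, a cell cycle inhibitor induced by radiation, averaged 10.2 CPM (read counts scaled to the size of the library) in UT and 135 CPM in PGCC, while 2 other genes of the radiation response, MDM2 and GDF15, averaged 49.7 and 617 CPM in UT and 42.6 and 416 CPM in PGCC and did not pass the test (adjusted p = 0.0576 and 0.517). Summed, these 3 genes ran from 163 to 1820 CPM over the UT libraries and from 415 to 701 CPM over the PGCC libraries. Most of the sum was GDF15, so its UT mean covers a wide spread. Of the prostate luminal markers KLK2, KLK3 and FOLH1 were at 0 and TMPRSS2 near 0, whereas the epithelial keratins KRT8, KRT18 and KRT19 were present and EPCAM averaged 0.448 CPM or less in UT and PGCC. Summed leukocyte markers lay between 0.464 and 2.97 CPM in UT and between 2.84 and 4.43 CPM in PGCC, most of it PTPRC. Endothelial markers summed to at most 1.34 CPM in any library and fibroblast markers to at most 15.1 CPM. The part of these markers in the results was not tested. Replicates 4 and 5 stood apart from the other 4 replicates in every condition on the second principal component. That component held 16.5% of the variance, against 55.9% for the first. For some genes, not for all, a call or size is also given without these replicates or for the 2 sets of replicates apart.

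The start of the mRNA was read first, since it is where the TOP motif lies. For 48 genes a transcription start was found by symbol among the RefSeq starts used here (GRCh38.p14, a different build from the hg19 of the counts). Of these, 12 (25.0%) had C at any listed start followed by at least 4 bases that are each C or T, on the strand of the gene. Such a start was listed for 5.14% of all 27305 genes. The windows below run from 12 bases before the start, with the pyrimidine run in capitals. The first 5 belong to genes with the motif that fell in PGCC and the next 3 to genes with the motif that did not pass the test. The last 4 have no motif at the listed start, and of these EIF1 fell, EIF5A2 rose, and EIF2S1 and EIF4E did not pass.
EEF1A1, chr6:73521015-73521044, minus strand: gccgtgaacgttCTTTTTCgcaacgggttt
EEF2, chr19:3985446-3985475, minus strand: gacgtcagcgttCTCTTCCgccgtcgtcgc
EIF2A, chr3:150546775-150546804, plus strand: cccgagcggtttCTCTTTCCgggacaacat
EIF3F, chr11:7987325-7987354, plus strand: cgcttccgcctcCTTCTTTCTCgacaagat
EIF4B, chr12:53006444-53006473, plus strand: cctcatccgggtCTTTTgcgttctctttcc
EIF4A2, chr3:186783565-186783594, plus strand: gggcgccgctgtCTTTTCagtcgggcgctg
EIF2D, chr1:206612448-206612477, minus strand: ttccagccgggcCCTTTTCgcggccgggcc
EIF3K, chr19:38619176-38619205, plus strand: cgtttccaccacCTCTTCCTgttcccgtcc
EIF1, chr17:41688873-41688902, plus strand: caccgcccctctgccccagtcactgagccg
EIF5A2, chr3:170908620-170908649, minus strand: gccccgtctcttggaactgccgcggccgcc
EIF2S1, chr14:67360316-67360345, plus strand: aggaggttccgcatgcgcggtggagtgagc
EIF4E, chr4:98929116-98929145, minus strand: tctggagcggttgtgcgatcagatcgatct

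The first question was how the factor genes differ between PGCC and parental cells. In PGCC 28 of the 54 tested genes fell and 1, EIF5A2, rose (edgeR's quasi-likelihood test, adjusted p under 0.05 by Benjamini-Hochberg over 13812 genes). Of all genes tested 47.4% passed, 24.3% as lower and 23.1% as higher, so that the share of factor genes called, 53.7%, lay near that of all genes while the share called lower was 51.9%. The median log2 fold change was -0.26 over the factor genes and -0.028 over all genes. In 17 factor genes (31.5%) every PGCC library lay below every UT library, as in 12.9% of all genes tested, and in 1 every PGCC library lay above, as in 13.9%. With the replicate number as a block 34 factor genes (63%) passed, where 56.2% of all genes did. Without replicates 4 and 5 the count was 31, with EIF1, EIF3C, EIF4H and EIF6 lost and EIF2B1, EIF2B3, EIF3B, EIF4A3, EIF4E and EIF5 added as lower. Relative to all counts, the factor genes held 3.02% ± 0.177 (SD, n = 6) in UT and 2.05% ± 0.0934 in PGCC, and without EEF1A1 1.835% ± 0.0739 and 1.446% ± 0.062. In bulk RNA, fewer cells of a type and less RNA per cell cannot be told apart, and counts scaled to the library say nothing of the amount of RNA per cell.

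**Figure D1:**
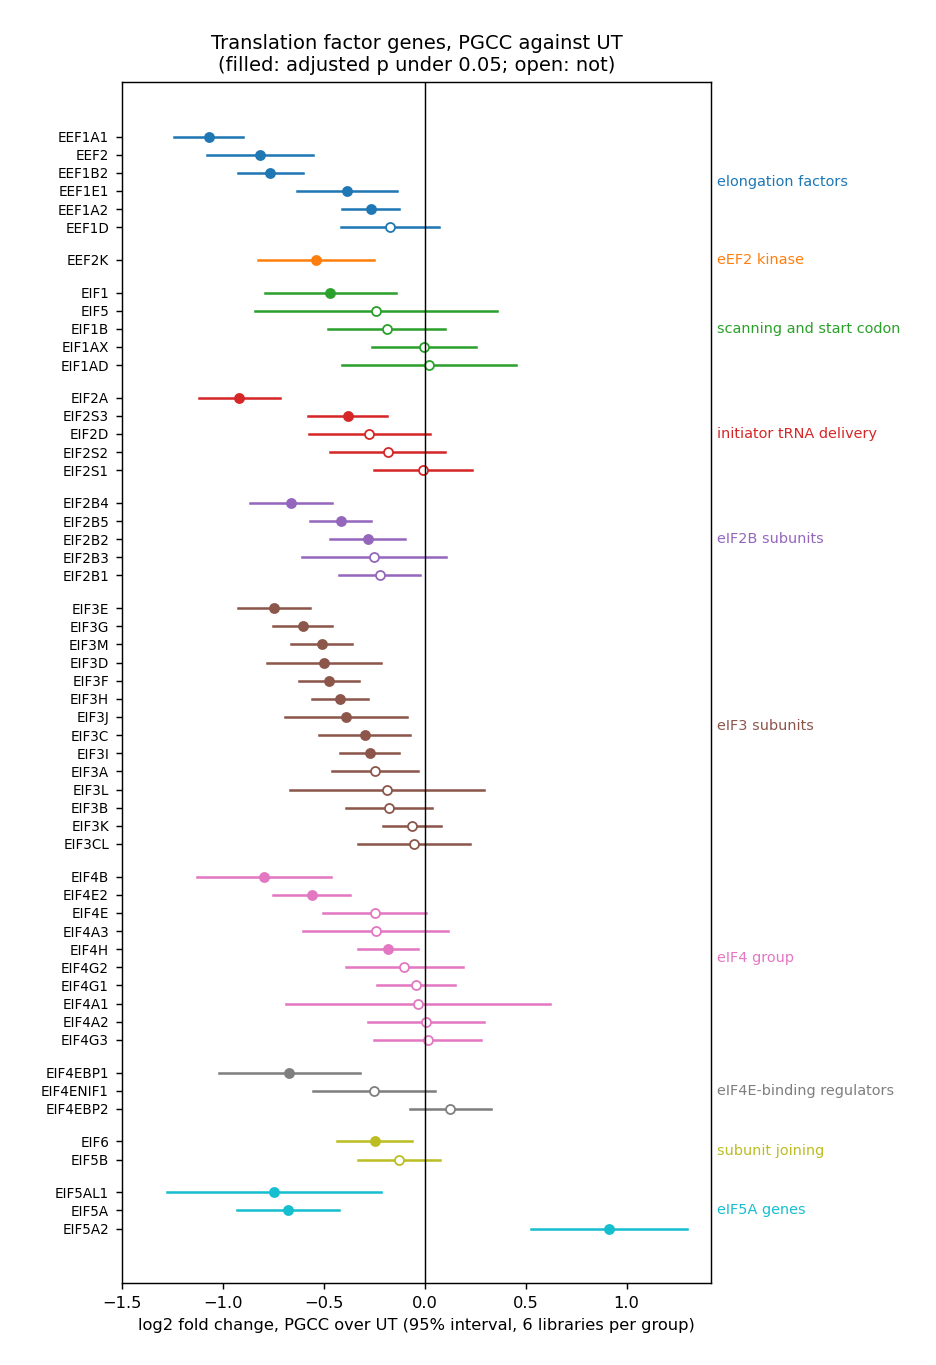
Log2 fold change of each tested factor gene in PGCC over UT (points, with 95% intervals as lines, 6 libraries per group), grouped by role, with filled points past the adjusted p threshold of 0.05. The points lie mostly left of 0, from -1.07 for EEF1A1, and EIF5A2 at 0.91 is the filled point to the right of it.

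The elongation factors held the most counts per gene of any group: 5 of the 6 tested fell and none rose, with a median log2 fold change of -0.57. EEF1A1 (ENSG00000156508, hg19 chr6:74225473-74233520, minus strand), the main carrier of aminoacyl-tRNA, had 10812, 12346 and 13843 CPM as the lowest, median and highest UT library and 5100, 5936 and 6328 CPM in PGCC. The 2 groups were far apart, and EEF1A1 fell by 52.4% (log2 fold change -1.07 ± 0.0807 SE, adjusted p = 2.7e-07). It took 1.19% ± 0.113 of all counts in UT and 0.602% ± 0.0442 in PGCC. Reads of EEF1A1 can also map to its many processed copies. The 38 annotated EEF1A1 pseudogenes together held 111.5 ± 13.0 CPM in UT and 54.2 ± 6.3 CPM in PGCC, little beside EEF1A1 itself. How the counting treated reads that align to several places is not given in the sources used here. These counts therefore cannot show how many EEF1A1 reads went uncounted.

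EEF2 (ENSG00000167658, hg19 chr19:3976054-3985467, minus strand), the translocase, lay at 3681, 4485 and 5916 CPM in UT and at 2257, 2691 and 3020 CPM in PGCC. The groups did not overlap although the UT libraries spread widely, with replicates 4 and 5 highest at 5744 and 5916 CPM (log2 fold change -0.81 ± 0.122, adjusted p = 1.01e-04). Paired by replicate, the difference in log2 CPM averaged -0.67 over replicates 1, 2, 3 and 6 and -1.07 over replicates 4 and 5. EEF1B2, a subunit of the nucleotide exchange factor, fell from 739.96 ± 52.2 to 433.3 ± 34.1 CPM (-0.76 ± 0.0743, adjusted p = 2.18e-06), also without overlap. EEF1D, another subunit of that factor, was at -0.17 ± 0.113 and passed with the block, not without it (adjusted p = 0.0424 and 0.226). EEF1G, its remaining subunit, could not be followed: 1 count was listed over all 24 libraries, and another gene model, MIR3654, is listed over the whole of its span on the same strand. EEF1E1, a scaffold protein of the aminoacyl-tRNA synthetase complex despite its symbol, fell by 23.3% (-0.38 ± 0.116, adjusted p = 0.014). That call was lost without replicate 3 (adjusted p = 0.0585) or replicate 6 (0.0528).

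EEF1A2 encodes the eEF1A isoform that healthy tissues confine largely to muscle and nerve. Per length of the gene (FPKM, computed here from CPM and the listed gene length) it ranked 5 among the factor genes in both populations, at 423.8 ± 27.3 FPKM in UT and 350.7 ± 25.1 FPKM in PGCC. Its CPM ran from 721.2 through a median of 767.6 to 857.2 in UT and from 592.4 through 647.3 to 704.1 in PGCC. These ranges were separate but close (log2 fold change -0.27 ± 0.066, adjusted p = 0.0043). EEF1A1 fell further than its paralog: the ratio of the length-scaled levels of EEF1A1 to EEF1A2 was 6.62 ± 0.99 in UT and 3.78 ± 0.391 in PGCC (two-sided exact permutation test on the log2 ratio, n = 6 per group, p = 0.00216, the smallest that 924 divisions allow, adjusted p = 0.0054 over the 5 gene ratios tested). Paired by replicate, the ratio of EEF1A1 to EEF1A2 was lower in PGCC in 6 of 6 pairs (two-sided exact sign change test, p = 0.0312, adjusted p = 0.039 over 5 ratios). EEF2K, the kinase that inactivates eEF2, also fell, from 33.5, 51.7 and 56.7 CPM to 27.3, 32.7 and 38.5 CPM (-0.54 ± 0.133, adjusted p = 0.00437). The lowest UT libraries of EEF2K were replicates 4 and 5, which lay inside or near the PGCC range. Its ratio to EEF2 did not pass the test (exact permutation p = 0.32, n = 6 per group, log2 difference 0.27, paired exact p = 0.219).

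**Figure D2:**
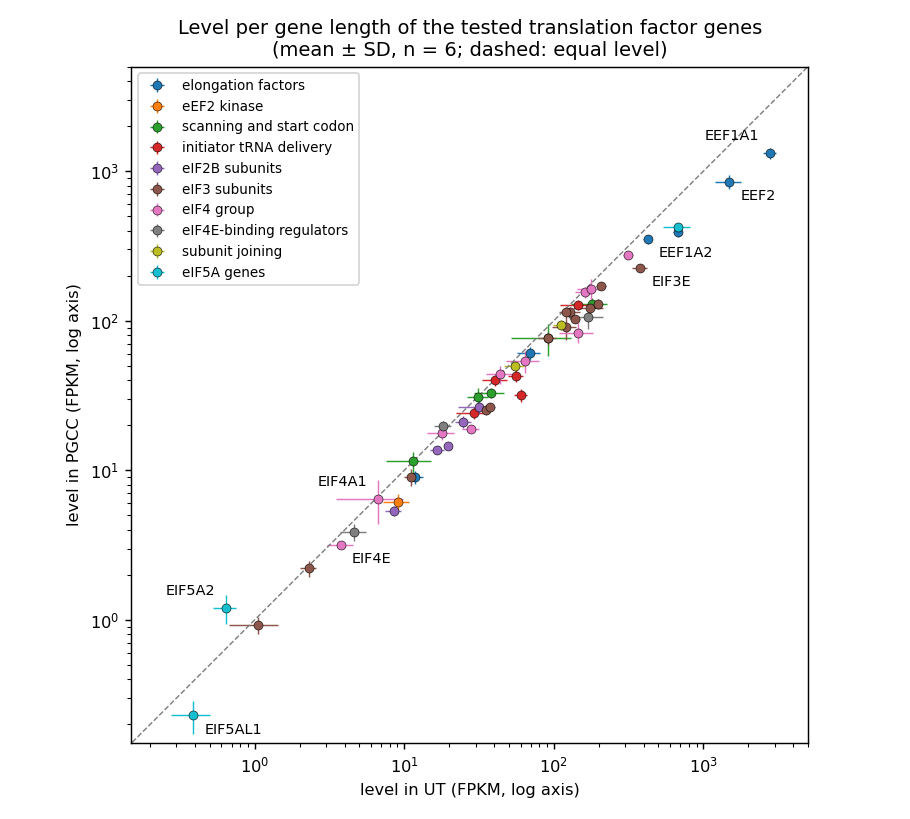
Mean level per gene length of each tested factor gene in UT (horizontal) and PGCC (vertical), in FPKM on log axes, with SD over 6 libraries as lines. EEF1A1 and EEF2 lie at the top right below the line of equal levels, and EIF5A2 near the bottom lies above it.

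Of the 5 tested factors of scanning and start codon choice 1, EIF1, passed. EIF1 (hg19 chr17:39845137-39848920, plus strand), which guards the choice of the start codon, lay at 313.4, 371.3 and 569.6 CPM in UT and at 250.4, 304.3 and 335.1 CPM in PGCC. The groups overlapped, and UT replicates 4 and 5, at 554.4 and 569.6 CPM, stood far above the other 4, which ran from 313.4 to 377.7 CPM. The log2 fold change was -0.47 ± 0.152 (adjusted p = 0.0206) with all libraries and -0.12 (adjusted p = 0.189) without replicates 4 and 5, and the call was also lost when either of the 2 was left out (adjusted p = 0.0675 without replicate 4 and 0.0901 without replicate 5). The span of EIF1 lies within that of JUP on the opposite strand, a gene counted at 4.82 CPM in UT. EIF1B, its paralog, was at -0.19 ± 0.135 (adjusted p = 0.272). EIF1AX, which encodes eIF1A, had a log2 fold change of -0.00 ± 0.12 with a 95% interval from -0.26 to 0.25. EIF5, the GTPase activator of eIF2, varied widely between replicates: in UT it ran from 572.4 to 766.2 CPM in replicates 1, 2, 3 and 6 but was at 213.1 and 302.1 CPM in replicates 4 and 5. Its log2 fold change was -0.24 ± 0.28 (adjusted p = 0.499) with all libraries, and it passed as lower when replicates 4 and 5 were left out.

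Among the 5 tested genes tied to initiator tRNA delivery EIF2A and EIF2S3 fell. EIF2A (ENSG00000144895, hg19 chr3:150264465-150302029, plus strand) encodes an alternative factor that can bring the initiator tRNA without GTP and is not a subunit of eIF2. It had 111.3, 138.3 and 143.9 CPM in UT and 60.7, 71.5 and 79.1 CPM in PGCC, with a wide gap between the groups (-0.92 ± 0.0927, adjusted p = 2.96e-06). The gene model of SERP1 covers its whole span on the opposite strand, and since the strand setting of the counting is not given, reads of the 2 genes may not have been told apart. Of the true eIF2 subunits, EIF2S3 (gamma) fell (-0.38 ± 0.0916, adjusted p = 0.00362, and -0.22, adjusted p = 0.042, without replicates 4 and 5). EIF2S2 (beta), whose span lies mostly within that of RALY on the opposite strand, was at -0.18 ± 0.133 (adjusted p = 0.274). EIF2S1, the alpha subunit whose phosphorylation lowers initiation under stress, lay at 139.4, 187.4 and 228.6 CPM in UT and at 159.3, 178.4 and 206.1 CPM in PGCC. These ranges lay within each other, and the log2 fold change was -0.01 ± 0.113 with a 95% interval from -0.25 to 0.23.

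All 5 subunits of eIF2B, the factor that reloads eIF2 with GTP, had fitted changes below 0, as did 52.2% of all genes tested. Of the 5 subunits 3 passed. EIF2B4 fell most, from 30.8, 35.9 and 44.0 CPM to 21.3, 22.6 and 26.2 CPM without overlap (-0.66 ± 0.0948, adjusted p = 6.48e-05). Its paired difference in log2 CPM averaged -0.785 over replicates 1, 2, 3 and 6 and -0.415 over replicates 4 and 5. EIF2B5, the catalytic subunit, fell by 25.0% (-0.42 ± 0.0703, adjusted p = 2.67e-04), and EIF2B2 by 17.8% (adjusted p = 0.016), a call lost without replicate 2. EIF2B1 was at -0.22 ± 0.0933 and passed with the block, not without it (adjusted p = 0.0196 and 0.0627). EIF2B3 was at -0.25 ± 0.166 (adjusted p = 0.23), and its paired difference averaged -0.482 and 0.327 over the same 2 sets of replicates.

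Of the subunits of eIF3, the largest initiation factor, 9 of 14 tested fell, none rose, and the median log2 fold change was -0.34. EIF3E, a subunit that contacts eIF4G, had 628.9, 761.7 and 866.5 CPM in UT and 406.5, 450.8 and 481.3 CPM in PGCC, with no overlap (-0.74 ± 0.083, adjusted p = 7.22e-06). EIF3G, one of the RNA-binding subunits, fell from 301.4 ± 14.97 to 197.6 ± 16.6 CPM (-0.60 ± 0.0683, adjusted p = 8.38e-06). EIF3M, EIF3F, EIF3H and EIF3D fell by 25.2% to 29.8%, and of these 4 EIF3D, with UT replicates 4 and 5 high, was the one whose groups overlapped. Without replicates 4 and 5 the log2 fold change of EIF3D went from -0.50 to -0.30 (adjusted p = 0.0149). EIF3J, EIF3C and EIF3I fell by 23.5%, 18.6% and 17.1%. The call of EIF3J was lost without any 1 of replicates 1, 2, 3 and 6, and that of EIF3C without replicate 2, 5 or 6, while EIF3I kept its call under each of the 18 alternatives. EIF3K, at the edge of the complex, lay at 139.4, 162.9 and 175.9 CPM in UT and at 146.5, 152.9 and 160.0 CPM in PGCC, and did not pass (-0.06 ± 0.0673, 95% interval -0.21 to 0.08). EIF3A and EIF3B, the scaffold subunits, passed with the block (adjusted p = 0.0275 and 0.0347) and not without it (0.0572 and 0.165). EIF3C and EIF3CL are near-identical copies whose reads the counting may have split, and EIF3L, at 3.40 ± 1.24 CPM in UT, is listed under 2 identifiers over nearly the same span, so neither can be read closely.

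In the cap-binding and mRNA-loading group 3 of 10 tested genes fell, EIF4B, EIF4E2 and EIF4H, and the median log2 fold change was -0.14. EIF4B (ENSG00000063046, hg19 chr12:53399942-53435993, plus strand), the cofactor of the helicase, had 473.2, 531 and 819.1 CPM in UT and 282.7, 346.5 and 431.7 CPM in PGCC. All PGCC libraries lay below all UT libraries, and UT replicates 4 and 5 were the highest (-0.80 ± 0.155, adjusted p = 8.02e-04). Paired by replicate, the log2 CPM of EIF4B differed by -0.65 on average in replicates 1, 2, 3 and 6 and by -1.02 in replicates 4 and 5. EIF4E2, a cap-binding protein known mainly as a repressor, fell from 82.2, 102 and 112.3 CPM to 61.4, 66.4 and 71.2 CPM without overlap (-0.56 ± 0.0895, adjusted p = 1.72e-04). EIF4H was at -0.18 ± 0.0694 (adjusted p = 0.0431), and its call was lost without replicate 2, 3, 5 or 6.

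The cap-binding protein itself, EIF4E, lay at 30.5, 43.4 and 53.7 CPM in UT and at 33.9, 36.8 and 38.1 CPM in PGCC. Its log2 fold change of -0.25 ± 0.119 did not pass (adjusted p = 0.103), and it passed without replicate 4 (adjusted p = 0.0237) and without replicates 4 and 5 together (-0.35, adjusted p = 0.00791). The scaffold EIF4G1 lay at 799.1, 882.4 and 1158 CPM in UT and at 812.9, 858.2 and 1009 CPM in PGCC (-0.04 ± 0.0894, 95% interval -0.23 to 0.15). Its listed span lies wholly within that of EIF2B5, so that some reads of the 2 genes may have been left out or shared. EIF4G3, its paralog, was at 0.02 ± 0.124 and EIF4A2, one of the helicases, at 0.01 ± 0.134, with 95% intervals from -0.25 to 0.28 and from -0.28 to 0.29. The helicase EIF4A1 is usually the more abundant paralog, but it was counted at 11.7 ± 5.52 CPM in UT and 11.3 ± 3.67 CPM in PGCC. Another 2 gene models on the same strand, SENP3-EIF4A1 and RP11-186B7.4, cover 95.4% and 98.1% of its span, so the level listed for EIF4A1 may not be that of its mRNA. EIF4A3, the helicase of the exon junction complex, was at -0.24 ± 0.167 and passed with the block, not without it (adjusted p = 0.0198 and 0.252).

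Of the 4E-BP genes EIF4EBP1 fell and EIF4EBP2 did not pass. EIF4EBP1 had 126.6, 153.7 and 241.5 CPM in UT and 83.3, 106.9 and 140.1 CPM in PGCC, with an overlap of the ranges (-0.67 ± 0.163, adjusted p = 0.00385), and was lower in PGCC in 6 of 6 replicate pairs. EIF4EBP2 had 108.3, 131.1 and 152.7 CPM in UT and 125, 146.4 and 155 CPM in PGCC. It was higher in PGCC in 6 of 6 pairs, yet its log2 fold change of 0.13 ± 0.0941 passed neither without the block (adjusted p = 0.283) nor with it (0.0653). Between the paralogs the change differed: the ratio of EIF4EBP1 to EIF4EBP2 per length was 9.75 ± 3.75 in UT and 5.50 ± 1.43 in PGCC (exact permutation p = 0.0152, n = 6 per group, adjusted p = 0.0253 over 5 ratios). With pairing, that ratio was lower in PGCC in 6 of 6 pairs (two-sided exact sign change test, p = 0.0312, adjusted p = 0.039 over 5 ratios). The ratio of EIF4EBP1 to EIF4E did not pass without pairing (exact permutation p = 0.18, n = 6 per group, log2 difference -0.42) but was lower in PGCC in 6 of 6 replicate pairs and passed with it (two-sided exact sign change test, p = 0.0312, the smallest that 64 sign changes allow, adjusted p = 0.039 over 5 ratios). Its log2 difference without replicates 4 and 5 was -0.20. EIF6, which keeps the large subunit from joining too early, was at -0.25 ± 0.0871 (adjusted p = 0.0305), a call lost without replicate 2, 4, 5 or 6. EIF5B, the GTPase of subunit joining, was at -0.13 ± 0.0956 (adjusted p = 0.295).

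The eIF5A genes held the one rise. EIF5A (hg19 chr17:7210318-7215774, plus strand), the abundant isoform, lay at 705.7, 1054 and 1347 CPM in UT and at 602.1, 641.4 and 663.2 CPM in PGCC, without overlap (-0.68 ± 0.118, adjusted p = 3.44e-04). Its paired difference in log2 CPM averaged -0.795 over replicates 1, 2, 3 and 6 and -0.384 over replicates 4 and 5. EIF5A2 (ENSG00000163577, hg19 chr3:170606204-170626482, minus strand), the isoform that healthy tissues express sparingly, lay at 2.61, 3.58 and 4.33 CPM in UT and at 4.94, 6.8 and 8.42 CPM in PGCC. All 6 PGCC libraries were above all 6 UT libraries (0.91 ± 0.181, a rise of 88.2%, adjusted p = 9.02e-04), on 45 to 140 counts per library. Even so, EIF5A remained far more abundant: the ratio of their length-scaled levels was 1060 ± 153 in UT and 363 ± 70.2 in PGCC (exact permutation p = 0.00216, n = 6 per group, adjusted p = 0.0054 over 5 ratios). Paired by replicate, the ratio of EIF5A to EIF5A2 was lower in PGCC in 6 of 6 pairs (two-sided exact sign change test, p = 0.0312, adjusted p = 0.039 over 5 ratios). EIF5AL1, a copy of EIF5A without introns, fell from 1.49 ± 0.436 to 0.88 ± 0.223 CPM (adjusted p = 0.0227) on 10 to 35 counts per library. Its reads may be those of EIF5A, and its call was lost without replicate 2 (adjusted p = 0.109) or replicate 6 (0.0878). The paired difference of EIF5AL1 averaged -0.953 and -0.119 over the same 2 sets of replicates.

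**Figure D3:**
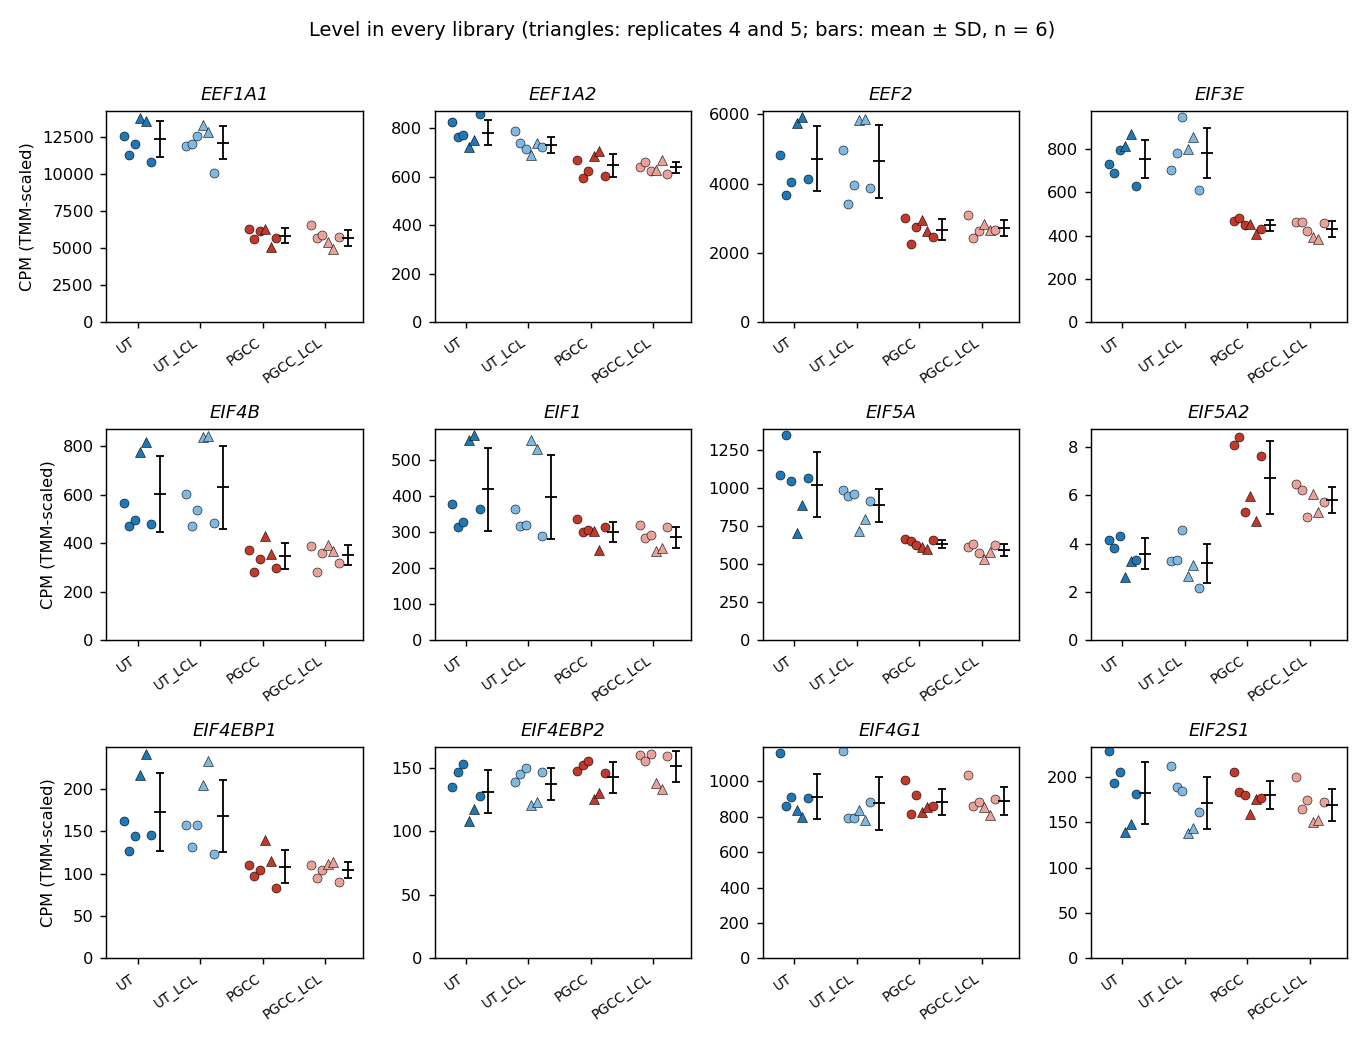
CPM of 12 factor genes in each of the 24 libraries by condition, with triangles for replicates 4 and 5 and bars for the mean and SD of 6 libraries. EEF1A1 and EIF5A2 separate the populations in opposite directions, while in EIF1 the UT triangles, at 554.4 and 569.6 CPM, stand above the other UT libraries.

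The pyrimidine motif at the start could next be set beside these changes. Of the 12 factor genes with the motif 9 fell in PGCC, with a median log2 fold change of -0.50. Those 9 were EEF1A1, EEF1B2, EEF2, EIF2A, EIF2S3, EIF3D, EIF3F, EIF3M and EIF4B, whereas EIF2D, EIF3K and EIF4A2 carried the motif and did not pass. Of the 32 tested factor genes with a matched start and without the motif, 14 fell and 1 rose, with a median of -0.24. Among other genes with such a start 33.3% of 682 were lower, with a median of -0.13, or 184 of 635 with a median of -0.09 once ribosomal protein genes were set aside, and among those without it 25.4% of 8380 were lower, with a median of -0.03. With LCL521 in both populations the counts were 9 of 12 and 10 of 32. When the C was allowed up to 5 bases from the listed start, 22 of the 48 factor genes (45.8%) matched. So did 25.2% of all genes with a listed start, tested here or not. Of those 22 factor genes, 14 fell, EIF1 among them, and 1 rose, EIF5A2. A match says only that these letters stand at the listed start, and no start was measured in PPC1 cells. For EEF1A2, EEF1D, EIF2S2, EIF3A, EIF3CL, EIF3E, EIF3G, EIF3H, EIF3L, EIF4EBP1, EIF2S3L and EEF1E1-MUTED no start was matched by symbol in the starts used here. These genes are in none of the motif counts, although EEF1A2, EIF3E, EIF3G, EIF3H and EIF4EBP1 fell. A textbook list of TOP mRNAs among the factors was written with earlier results of these data known, so its count is no separate support. Of its 10 tested genes 8 fell, with a median of -0.61, and 20 of the other 44 fell, with a median of -0.25.

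The enzymes and kinases that act on the factors were read from lists of 55 genes, 54 of them tested: 21 fell and 3 rose, with a median log2 fold change of -0.14. That is 44.4% called, against 47.4% of all genes tested, of which 24.3% were lower and 23.1% higher. Without replicates 4 and 5 the calls of DPH5, GSPT1, MKNK1, MKNK2 and TSC1 were lost. Leaving out a single replicate ended at least once the calls of these 5 and of ABCE1 and RPTOR. The enzymes that build hypusine on eIF5A and diphthamide on eEF2 fell most often, 7 of 9, with a median of -0.63. DHPS, which carries out the first step to hypusine, was at -0.81 ± 0.145 (adjusted p = 4.14e-04), DPH1 at -0.63 ± 0.0727 and DPH2 at -0.78 ± 0.0777, and the largest fall was that of ATPBD4, an older symbol of the diphthamide enzyme DPH6 (-0.91 ± 0.155, adjusted p = 2.8e-04). DOHH, the second hypusine enzyme, was at 0.11 ± 0.154 and did not pass. Of 5 methyltransferases of elongation factors 1 fell, FAM86A, which acts on eEF2 (-0.85 ± 0.132, adjusted p = 1.3e-04).

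Of 14 genes of mTORC1 and the eIF4 kinases 7 fell and 2 rose. DEPTOR, an inhibitor within mTORC1, fell from 13.8 ± 4.76 to 3.78 ± 0.917 CPM (-1.86 ± 0.233, adjusted p = 2.06e-05), and LARP1, the TOP motif binder, from 359.8 ± 45.4 to 224.8 ± 23.8 CPM (-0.67 ± 0.0955, adjusted p = 6.24e-05). In the same list TSC2 averaged 132.1 ± 12.1 CPM in UT and, higher, 158.7 ± 10.4 CPM in PGCC. TSC1 averaged 49.36 ± 4.22 CPM in UT and, lower, 41.04 ± 4.38 CPM in PGCC. The eIF4E kinase MKNK2 lay between 122.6 and 353 CPM in UT and between 110.7 and 160.5 CPM in PGCC, with UT replicates 4 and 5, at 353 and 315.7 CPM, far above the other UT libraries. It fell with all libraries (-0.67 ± 0.241, adjusted p = 0.0347) and did not pass without replicates 4 and 5 (-0.20, adjusted p = 0.126), without replicate 4 (adjusted p = 0.0702) or without replicate 5 (0.125). Its paralog MKNK1 rose with all libraries (0.45 ± 0.137, adjusted p = 0.014) and did not pass without replicate 5 (adjusted p = 0.0605) or without replicates 4 and 5 (0.26, adjusted p = 0.0944). MTOR itself was at 0.10 ± 0.0982. Of 7 eIF2 kinases and phosphatase subunits 1 passed: EIF2AK3, the kinase PERK of the endoplasmic reticulum, rose from 24 ± 3.15 to 38.2 ± 9.08 CPM (0.68 ± 0.159, adjusted p = 0.00294). The rise lay in replicates 1, 2, 3 and 6, with 19.11 to 24.3 CPM in UT and 37.63 to 49.63 CPM in PGCC. Replicates 4 and 5 hardly differed, at 28.97 and 24.48 CPM in UT and at 29.07 and 26.29 CPM in PGCC. PPP1R15A, the stress-induced phosphatase subunit, was at 0.81 ± 0.358 and passed with the block, not without it (adjusted p = 0.0416 and 0.0768). Its direction differed between replicates. In replicates 1, 2, 3 and 6 PPP1R15A lay at 33.37 to 47.76 CPM in UT and at 119.8 to 150.4 CPM in PGCC. In replicates 4 and 5 it was lower in PGCC, at 98.27 and 92.99 CPM against 128.9 and 139.2 CPM in UT. Among 9 tested poly(A)-binding and cap cofactors PAIP1 (-0.67 ± 0.0905) and DDX3X (-0.43 ± 0.109) fell, and PABPC1 was at -0.11 ± 0.0732. With the block GIGYF1 also passed as lower (adjusted p = 0.00265, against 0.115 without it) and CYFIP1 as higher (0.0269 against 0.0837). Of 8 termination and recycling factors 4 fell, ABCE1, MCTS1, DENR and GSPT1, by 0.30, 0.30, 0.28 and 0.20 on the log2 scale, while ETF1, the termination factor that reads stop codons, was at -0.04 ± 0.101. Neither of the 2 eIF5 mimics, BZW1 and BZW2, passed.

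The same comparison was made with LCL521 in both populations, on other libraries from the same 6 runs. Libraries of the same run were alike, with a median correlation of their deviations from the condition means of 0.652 between UT_LCL and UT and of 0.532 between PGCC_LCL and PGCC, so that the 2 comparisons are not independent. In PGCC_LCL against UT_LCL 24 factor genes (44.4%) fell and 1 (1.85%) rose, where 48.9% of all genes tested passed, 23.9% as lower and 25.0% as higher. The median log2 fold change was -0.23 over the factor genes and -0.01 over all genes. Called in both comparisons were 24 genes, 82.8% of the 29 without the drug and 96.0% of the 25 with it, and all 24 had the same direction. Over all genes tested in both comparisons the shares were 90.4% and 87.5%, with the same direction in each of the 5845 genes called in both. EIF3C, EIF3J, EIF4H, EIF5AL1 and EIF6 passed without LCL521 alone and EIF4E with it alone (-0.28 ± 0.11, adjusted p = 0.0446). The EIF4E call was lost with limma-voom, library totals, at least 10 counts in every library or gene length correction. It was also lost without replicate 1, 2, 3, 5 or 6. EEF1A1 was at -1.06 ± 0.0885, EIF2A at -0.97 ± 0.0979, EIF3E at -0.84 ± 0.103 and EIF5A2 at 0.89 ± 0.167. With the block 27 factor genes (50%) passed, where 56.3% of all genes did. EIF4EBP2 then rose as well (0.17 ± 0.055, adjusted p = 0.0269, against 0.105 without it) and EIF1 was lost (adjusted p = 0.0314 without and 0.0708 with it), and EIF2D and EIF3J passed as lower (adjusted p = 0.0329 and 0.00521). EIF1 was also lost without replicates 4 and 5, as were EIF2S3 and EIF3D.

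**Figure D4:**
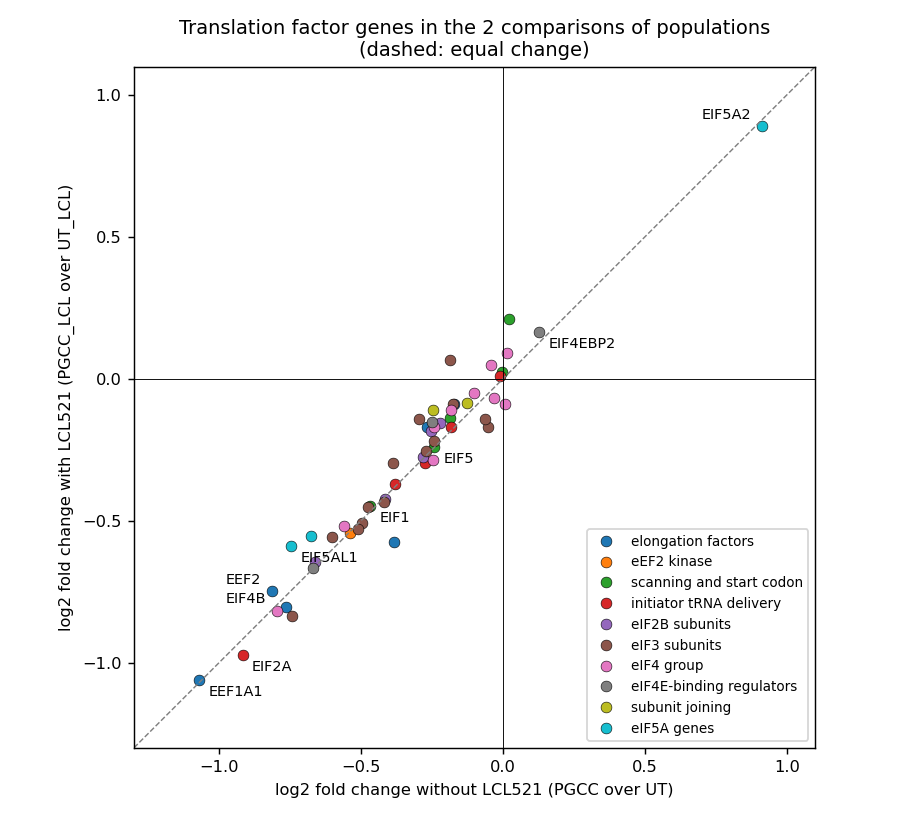
Log2 fold change of each tested factor gene between the populations without LCL521 (horizontal) and with it (vertical), coloured by role, with a dashed line of equal change. The points lie along that line from EEF1A1, at -1.07 and -1.06, to EIF5A2, at 0.91 and 0.89.

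The last question was whether 5 h of LCL521 changed the factor genes in either population. No factor gene passed in UT_LCL against UT or in PGCC_LCL against PGCC (edgeR, where 0% and 0.00707% of all genes passed), nor with DESeq2 or limma-voom, which gave at most 2 factor genes at an unadjusted p under 0.05 in either population. At an unadjusted p under 0.05 there were 0 and 1 factor genes (0% and 1.85%), against 0.535% and 1.54% of all genes. The block gave 10 and 14 factor genes (18.5% and 25.9%), against 12.4% and 14.3% of all genes. With the block none passed the adjusted threshold, where 0.866% and 1.65% of all genes did. The fitted changes leaned below 0, in 43 and 41 of 54 factor genes (79.6% and 75.9%) against 50.1% and 51.3% of all genes, by medians of -0.04 in each population. Without the block the 95% interval lay wholly within 0.5 log2 units of 0 for 46 factor genes in UT and 51 in PGCC, and with it for 53 in each.

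EIF5A had one of the 3 smallest p-values in both populations. It lay at 715.6, 930 and 990.1 CPM in UT_LCL against 705.7, 1054 and 1347 CPM in UT (-0.19 ± 0.135, adjusted p = 1), and at 533.4, 597.3 and 633.2 CPM in PGCC_LCL against 602.1, 641.4 and 663.2 CPM in PGCC (-0.10 ± 0.0552, adjusted p = 1). The ranges overlapped in both populations. With the block the adjusted p was 0.17 in UT and 0.116 in PGCC. EEF1E1 was at -0.27 ± 0.1 in PGCC (95% interval -0.48 to -0.05, adjusted p = 1), from 8.53, 9.51 and 11 CPM to 6.97, 8.24 and 8.67 CPM, on 128 to 216 counts per library. EIF3K in PGCC was at -0.09 ± 0.0477, and in UT EIF3G and EEF1A2 were at -0.09 ± 0.0632 and -0.09 ± 0.0655. The interaction, which tests whether the LCL521 difference itself differed between PGCC and parental cells, passed for no factor gene (0 at an unadjusted p under 0.05, against 0.412% of all genes). Its 3 smallest p-values were those of EEF1E1 (-0.21, 95% interval -0.52 to 0.09), EIF3K (-0.10, -0.29 to 0.09) and EIF6 (0.12, -0.12 to 0.36).

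**Figure D5:**
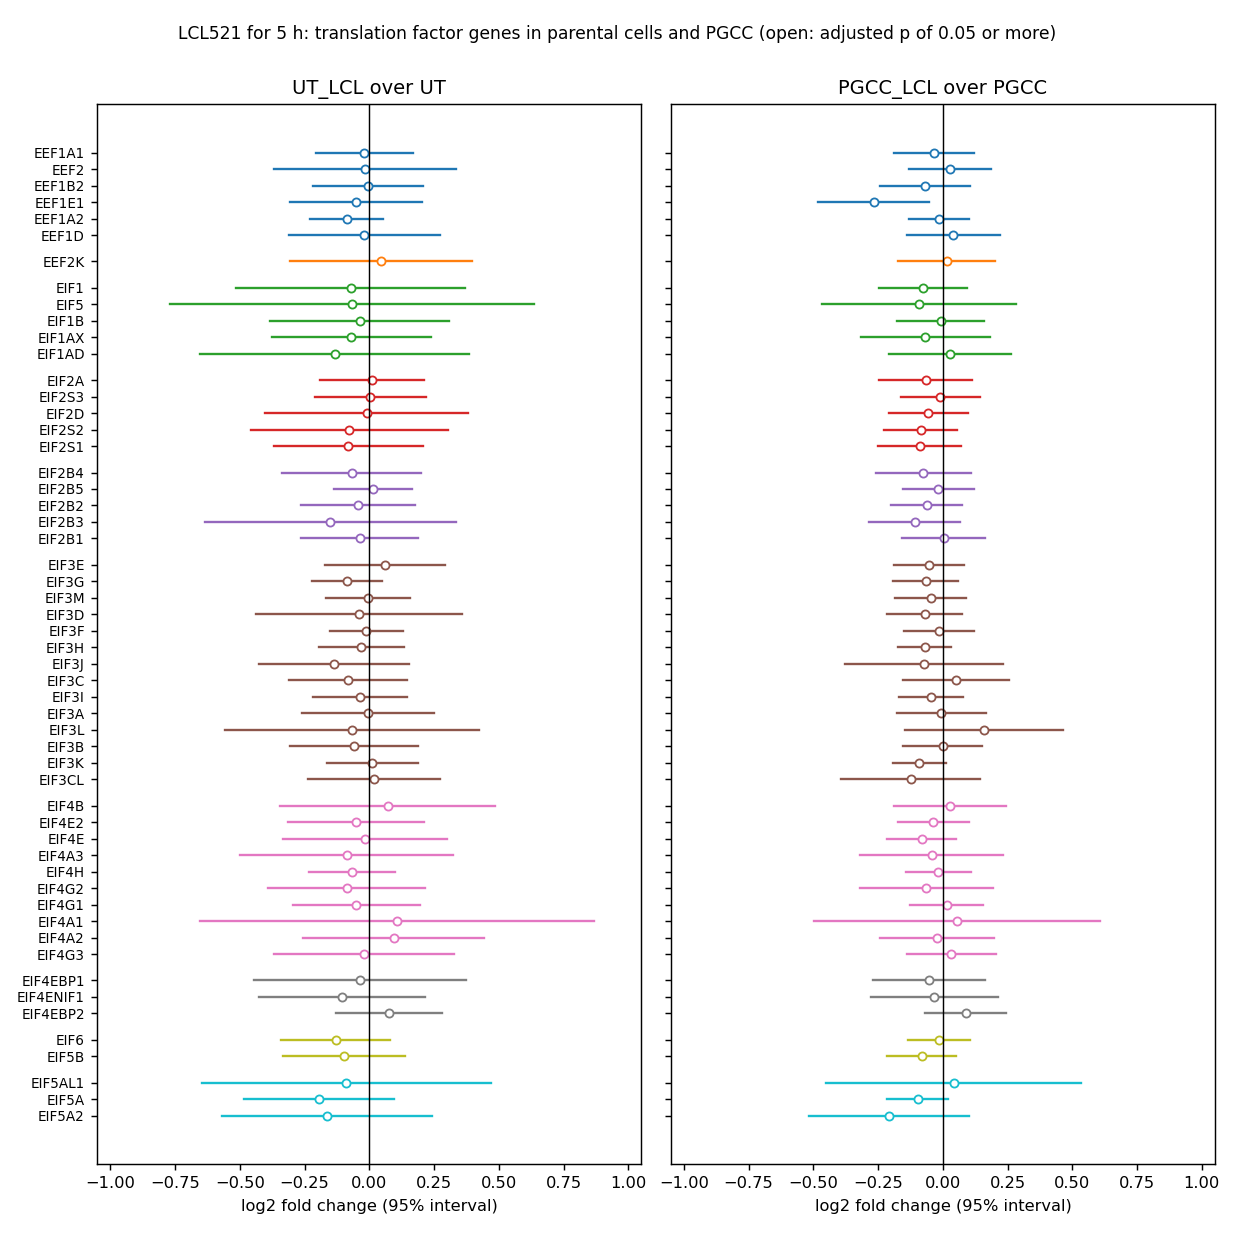
Log2 fold change of each tested factor gene with LCL521 in parental cells (left) and in PGCC (right), with 95% intervals as lines and 6 libraries per group. No point is filled, since none passed the adjusted threshold, and the widest intervals are those of genes with few counts or with replicates 4 and 5 apart, such as EIF4A1 and EIF5.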

How the data were processed

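The values are read counts per gene, not normalized, that the authors deposited for 24 samples of PPC1 cells. Their provider, Novogene, made them from paired-end reads with STAR and HTSeq on hg19, the build in the submitters' processing notes. The annotation release and strand setting are not given in the sources used here. CPM and FPKM were computed here.

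Each pair of conditions was fitted alone with edgeR 4.0.16 (R 4.3.3), and the interaction on 24 libraries, after filterByExpr (minimum count 10, minimum total 15) and TMM scaling, with quasi-likelihood tests and Benjamini-Hochberg adjustment at 0.05 over all genes. SE was taken from the fold change and its F value. Ratios were compared by exact permutation tests. Libraries of a condition differed by more than sampling noise (chi-square per degree of freedom 4.98 to 111).

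Replicate numbers mark the 6 runs. Deviations of same-numbered libraries from their condition means correlated at 0.171 or more in every pair, so the numbers pair the libraries. Alternatives were the replicate block, DESeq2 1.42.0, limma-voom (limma 3.58.1), other scalings and filters, 1 fit of all libraries, gene length correction and replicates left out. Paired exact tests of the ratios, and replicates left out for genes of the lists, were added after seeing the data. The procedure was tested on simulated counts.

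Genes, lists and tests were chosen with earlier results of these data known. By rule, full values went to the largest rise and fall per role and list, 6 central factors, paralog sets, and the 3 smallest p-values of each LCL521 comparison and the interaction. Other genes given with values were chosen after these were seen.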

Additional observations from a re-analysis of the deposited data

Results flagged for a closer look

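Among 102 sets of 6 libraries, each of 1 named gene in 1 condition, 4 held a library far from the other 5 (the gap to its neighbour was a larger share of the range than Dixon's 95% critical value). Chance flags about 1 set in 20. EIF4G1 stood at 1158 CPM in UT replicate 1, with the next library at 912 CPM, and at 1170 CPM in UT_LCL replicate 1, with the next at 882.7 CPM. EIF2B4 stood at 26.21 CPM in PGCC replicate 4, with the next at 22.79 CPM, and EEF2K at 37.25 CPM in PGCC_LCL replicate 3, with the next at 32.9 CPM. The cause was not tested.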

How the results depend on the processing

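In PGCC against UT, 21 of the 29 factor genes called passed under all 18 alternatives, and between 22 (library totals) and 34 (replicate block) were called. The other 8 were EEF1E1, EIF1, EIF2B2, EIF3C, EIF3J, EIF4H, EIF5AL1 and EIF6. The block added EEF1D, EIF2B1, EIF3A, EIF3B and EIF4A3 and lost none, and apart from these and the calls named beside their results it changed no other. EIF5A2 was the 1 gene called higher under each. In PGCC_LCL against UT_LCL, 18 of 25 were kept throughout, and counts ran from 21 (gene length correction) to 27. The LCL521 comparisons and the interaction gave 0 calls in every alternative but 1, the block with gene length correction, which called 1 factor gene, EIF3J, lower in UT_LCL. Leaving out 1 replicate at a time gave 23 to 28 calls in PGCC against UT and 22 to 24 with LCL521. Of 35 results for single genes 23 kept direction and side of the threshold throughout. Among them the sign changed in 7 genes that did not pass, with these log2 values: EIF2S1 (DESeq2 0.0013, limma-voom 0.0050, RLE factors 0.0013, library totals 0.0847, at least 10 counts in every library 0.0284, block 0.0065, gene length correction 0.0203, both 0.0371, single replicates left out -0.0509 to 0.0229), EIF4A1 (limma-voom 0.0375, library totals 0.0592, block 0.0124, length correction 0.0490, both 0.0968, without replicates 4 and 5 0.0469, single replicates left out -0.135 to 0.143), EIF3K (library totals 0.0299, length correction 0.0166, both 0.0175), EIF4G1 (library totals 0.0527), EIF1B (without replicates 4 and 5 0.000228), EIF4A2 (no filter -0.0153, all 24 libraries -0.0012, single replicates left out -0.0296 to 0.103) and EIF4G3 (no filter -0.0061, single replicates left out -0.0245 to 0.0880). The cause was not tested. Low counts limit EIF5AL1 and EIF5A2.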
